A study of Homo sapiens with 8 samples.

Results

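A run of 60 genes on the short arm of chromosome 16 was examined in Panc 10.05, a long-established cell line from a human pancreatic ductal adenocarcinoma. The genes had been chosen because they lie in a run on chromosome 16, from TMEM186 to SH2B1 (8780384 to 28874212 in GRCh38), and because that run had shifted upward together in cells overexpressing ELAPOR1, so their change is given here as a description and carries no test. The stretch named in the choice reached a little past SH2B1, over 13 further tested genes of which none is a member, and the run is taken here to end with SH2B1. Of the 58870 gene rows in the table, 59 matched a listed symbol, and the other member, CDR2, was found by its identifier because the table lists it as AC092338.1. RNA sequencing covered 8 libraries, 4 of control Panc 10.05 cells and 4 of Panc 10.05 cells labelled as ELAPOR1 overexpression. The means of overexpression, with any vector or promoter, and what the control cells received are not given in the sources used here. Whether a library came from a culture of its own is not given either, so the spread between libraries may be technical. The series asks whether ELAPOR1 shifts these cells toward the classical/progenitor subtype and alters their metabolism.

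The short arm of chromosome 16 is known for blocks of near-identical repeated DNA between which recurrent deletions and duplications arise in people. Genes that are neighbours on a chromosome mostly serve unrelated tasks, and the members here range from a DNA repair scaffold to a drug efflux pump. What neighbours can share is the chromosome segment itself, its number of copies, its chromatin and, for genes that start back to back, a common stretch of promoter DNA. The table holds RNA counts only, and the number of DNA copies was not measured in these libraries.

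Library totals ran from 13765509 to 18128757 estimated counts. Pearson correlations of log2(CPM + 1), where CPM is counts per 1000000 after scaling between libraries, were 0.995 to 0.996 within a group and 0.987 to 0.989 between groups. The level of ELAPOR1 matched the labels, with 1, 1, 4 and 4 ELAPOR1 counts in the control libraries and 7006, 6422, 5910 and 7368 in the ELAPOR1 libraries. All 5 epithelial markers (EPCAM, CDH1, KRT8, KRT18 and KRT19) were present, with summed levels of 10894 to 12037 CPM in control and 9787 to 10113 CPM in ELAPOR1 libraries. The lower sum came from KRT8 (means 5355 and 4785 CPM) and KRT18 (4692 and 3662 CPM), while KRT19 (471 and 558 CPM) and CDH1 (343 and 370.0 CPM) were higher with ELAPOR1. No leukocyte, acinar or endocrine marker averaged 1 CPM, and the 3 acinar markers had no count in any library. Of the fibroblast and endothelial markers, COL1A1 and VWF did reach that level, and the summed levels were 2.83 to 4.27 and 1.61 to 1.95 CPM in control and 2.71 to 3.19 and 0.576 to 0.865 CPM in ELAPOR1 libraries. The part of the lower epithelial and endothelial sums in the results was not tested. In these bulk libraries, more cells with a high level and more RNA per cell cannot be told apart.

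Most members were slightly higher with ELAPOR1. The 60 genes together took 0.281, 0.276, 0.281 and 0.274% of all counts in the 4 control libraries and 0.361, 0.362, 0.363 and 0.365% in the 4 ELAPOR1 libraries, a ratio of 1.31 between the group means. No ELAPOR1 library came near the control range, and the 4 ELAPOR1 libraries lay closer together than the gap to control. Across the members, the median of log2(CPM over the control mean) was 0.331, 0.334, 0.325 and 0.355 in the ELAPOR1 libraries and between -0.007 and 0.020 in the control libraries. XYLT1, a xylosyltransferase that starts proteoglycan chains, and NUPR1, a stress-induced chromatin protein, had too few counts to be tested. XYLT1 had 1 count in 1 control library and 2 counts in 1 ELAPOR1 library, and NUPR1 had 3, 3, 3 and 4 counts in control and 0, 2, 0 and 0 in ELAPOR1 libraries.

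Of the 58 members that passed the filter on low counts, 55 had a log2 fold change above 0, against 50.1% of the 13860 genes tested. Their median log2 fold change was 0.35, or 1.27-fold, beside a median of 0.0009 over all tested genes. The edgeR adjusted p-value was under 0.05 for 48 members that were higher (22.6% of all tested genes) and for 1 that was lower (22.1% of all tested genes). Control and ELAPOR1 levels were fully separate for 44 members that were higher (20.0% of all tested genes) and for 1 that was lower (19.3%). Since the members were picked on this contrast, nothing is read from these shares. The log2 fold change lay between 0.3 and 0.7 for 31 members and reached 1.5-fold for 7, CLEC16A, RRN3, ARL6IP1, UBFD1, PALB2, DCTN5 and KDM8. The name given to the run, genes higher together, did not hold for TMEM186, CARHSP1 and CLN3, whose log2 fold changes were below 0, and 7 members changed by less than 1.1-fold (ATF7IP2, SNN, ITPRIPL2, LYRM1, METTL9, COG7 and ATXN2L).

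**Figure D1:**
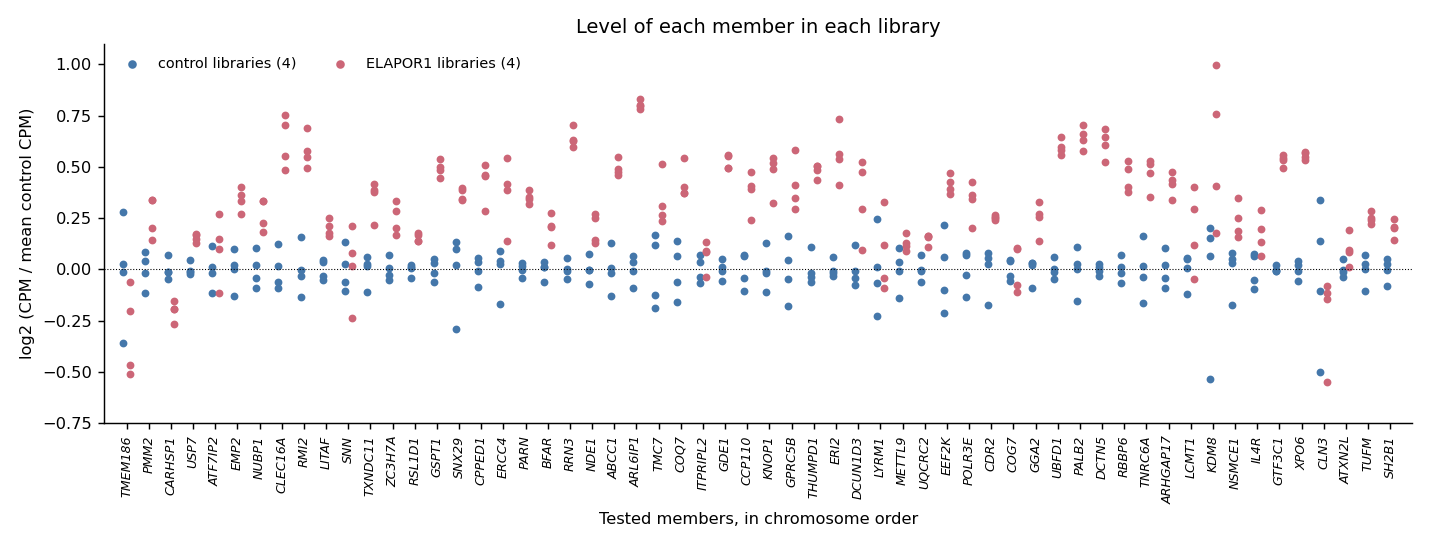
Level of each of the 58 tested members in each of the 8 libraries, as log2 of CPM over the mean control CPM, in chromosome order. Blue points are the 4 control and red points the 4 ELAPOR1 libraries. For 44 members every red point lies above every blue point, ARL6IP1 stands highest as a group, and for CARHSP1 every red point lies below.

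Along the chromosome, the members fell into 7 blocks parted by more than 1 Mb between neighbouring starts. The first block, TMEM186 to USP7 (8780384 to 8964514), did not share the shift, with 2 genes higher, 2 lower and a median log2 fold change of -0.02. The next 13 genes, ATF7IP2 to CPPED1 (10326434 to 12804017), were all higher, with a median of 0.34. So were the 6 genes from ERCC4 to ABCC1 (13920157 to 16143074, median 0.36), the 17 from ARL6IP1 to CDR2 (18791667 to 22437165, median 0.38) and the 9 from COG7 to LCMT1 (23388493 to 25178231, median 0.45). XYLT1, alone between 17101769 and 17470881, was not tested. In the last block, KDM8 to SH2B1 (27203495 to 28874212), 8 of 9 tested genes were higher and the median was 0.24. Within blocks the members varied widely, from 0.07 to 0.80 between ARL6IP1 and CDR2 and from 0.01 to 0.64 between COG7 and LCMT1.

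The ends of the run were not sharp. At the end toward the tip, TMEM186 (-0.29, SE 0.134) and PMM2 (0.26, SE 0.065) lay just inside, and ABAT (0.65, SE 0.325, at 1.21 CPM) and METTL22 (-0.09, SE 0.106) just outside. At the other end, TUFM (0.25, SE 0.035) and SH2B1 (0.20, SE 0.055) were the last members, and ATP2A1 (-0.05, SE 0.23, at 2.09 CPM) and RABEP2 (0.40, SE 0.099) followed. The 149 tested genes between the tip and the first member had a median log2 fold change of -0.07. From the last member toward the centromere, the median was -0.07 over the next 13 genes, of which 8 were lower, 0.17 over the 45 after them and 0.003 over the 43 nearest the centromere. The long arm also lay above 0, with a median of 0.17 over 303 genes, so chromosome 16 outside the run was not flat.

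**Figure D2:**
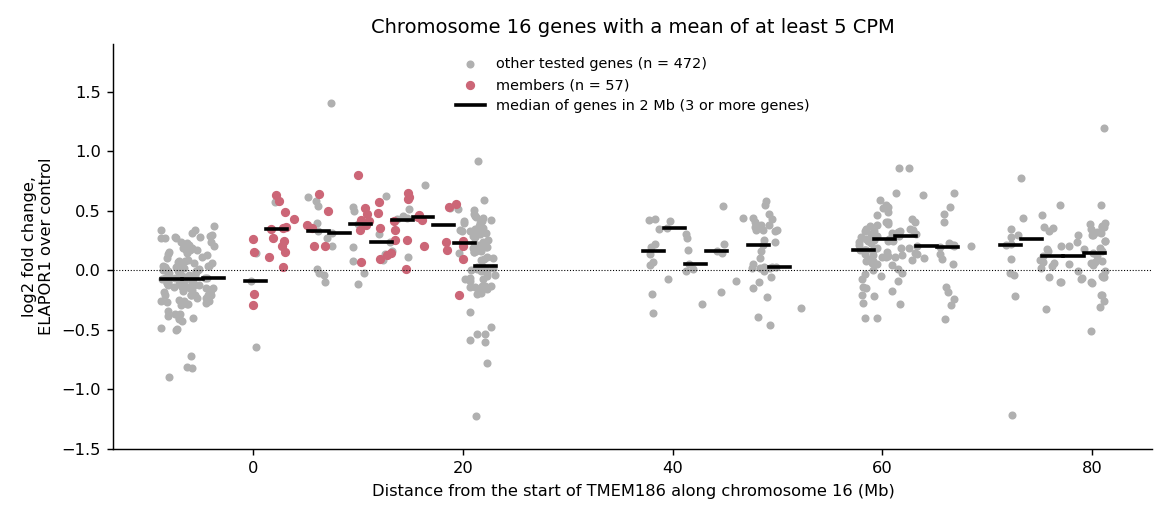
Log2 fold change of chromosome 16 genes that averaged 5 CPM or more against distance from the start of TMEM186. Red points are 57 members, grey points 472 other tested genes, and bars are medians in steps of 2 Mb that hold 3 or more genes. The bars lie near -0.07 before the members, between 0.22 and 0.45 over all steps with members past the first, and between 0.03 and 0.35 on the long arm.

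Genome maintenance held some of the highest members. All 4 were higher without overlap, as were 75.9% of all tested members and 20.0% of all tested genes. PALB2, which bridges BRCA1 and BRCA2 in repair by recombination, had 20.2, 21.4, 19.8 and 17.8 CPM in control and 32.3, 29.54, 31.3 and 30.7 CPM in ELAPOR1 libraries. Its lowest ELAPOR1 library stood well above its highest control library (log2 fold change 0.64, SE 0.068). RMI2, a subunit of the complex that dissolves crossed DNA strands with the BLM helicase, was at 15.4 to 18.8 CPM in control and 23.8 to 27.3 CPM in ELAPOR1 libraries (0.58, SE 0.075). ERCC4, the nuclease of nucleotide excision repair that works with ERCC1, was 0.38 higher (SE 0.098), and NSMCE1, a subunit of the SMC5/6 complex, 0.24 higher (SE 0.070), both on the log2 scale.

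Centrosome and cytoskeleton genes (NDE1, CCP110, DCTN5, ARHGAP17 and XPO6) were all higher without overlap, as were 75.9% of all tested members and 20.0% of all tested genes. Their median log2 fold change was 0.42. DCTN5, a subunit of the dynactin complex that links dynein to its cargo, had 71.1, 69.9, 72.6 and 72.1 CPM in control and 115, 112, 109 and 103 CPM in ELAPOR1 libraries (log2 fold change 0.62, SE 0.041). The control libraries of DCTN5 were almost level, and the ELAPOR1 libraries spread more widely but stayed apart from them. XPO6, the exportin that carries actin out of the nucleus, stood at 86.6, 85.1, 82.1 and 88.0 CPM in control and 127, 127, 125 and 124 CPM in ELAPOR1 libraries (0.55, SE 0.037). ARHGAP17, a GTPase-activating protein, was 0.42 higher, CCP110, which caps centrioles, 0.38, and NDE1, a dynein regulator in mitosis, 0.20 (SE 0.058, 0.070 and 0.055).

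Among the genes of transcription and chromatin, 5 of 6 were tested and all 5 were higher, with a median of 0.53, the largest of the 10 role groups. RRN3, the factor that brings RNA polymerase I to ribosomal DNA, had 46.9, 44.9, 45.2 and 43.8 CPM in control and 69.9, 73.6, 69.8 and 68.5 CPM in ELAPOR1 libraries (log2 fold change 0.64, SE 0.046). The groups of RRN3 lay far apart, but its estimated counts were not whole numbers in any of the 8 libraries and the table holds 3 copies named RRN3P1, RRN3P2 and RRN3P3, so reads may have been divided between them. GTF3C1, the largest subunit of the TFIIIC complex that opens RNA polymerase III genes, had 72.0, 70.9, 70.5 and 70.6 CPM in control and 103, 104, 99.9 and 103 CPM in ELAPOR1 libraries (0.53, SE 0.039). POLR3E, a subunit of RNA polymerase III itself, was 0.33 higher (SE 0.056). The groups overlapped for ATF7IP2 (0.11, SE 0.119) and for KDM8, a JmjC-domain hydroxylase at a mean of 1.21 CPM (0.63, SE 0.301).

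Of the 11 members that bind, cut or translate RNA, 10 were higher and their median was 0.42. GSPT1, the release factor eRF3a that ends translation, had 171, 173, 165 and 160.04 CPM in control and 236, 228, 234 and 243 CPM in ELAPOR1 libraries (log2 fold change 0.49, SE 0.033). Every ELAPOR1 library exceeded every control library by more than the spread within either group. ERI2, an exonuclease-domain protein, had 17.9, 18.9, 17.7 and 18.0 CPM in control and 26.8, 26.3, 24.1 and 30.2 CPM in ELAPOR1 libraries (0.57, SE 0.073), but it overlaps ACSM3, REXO5, LYRM1 and DCUN1D3 in the annotation, and with the strand setting not given their reads cannot be told apart. THUMPD1, an adaptor for tRNA acetylation, was 0.48 higher (SE 0.051), TNRC6A, the scaffold of microRNA silencing, 0.47 (SE 0.055), and RBBP6, a ubiquitin ligase of messenger RNA 3′ end processing, 0.45 (SE 0.043). EEF2K, the kinase that slows elongation by phosphorylating eEF2, was 0.42 higher (SE 0.075) and PARN, a poly(A) nuclease, 0.35 (SE 0.050). The smaller differences were those of ZC3H7A (0.25, SE 0.046), the nucleolar protein RSL1D1 (0.16, SE 0.031) and the stress granule protein ATXN2L (0.10, SE 0.036), and only the last of these had overlapping groups.

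CARHSP1, a cold-shock-domain RNA-binding protein in the first block, went the other way. It had 41.8, 41.9, 44.3 and 40.9 CPM in control and 37.0, 37.99, 36.9 and 35.1 CPM in ELAPOR1 libraries (log2 fold change -0.20, SE 0.054). All its ELAPOR1 libraries lay below all its control libraries.

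Ubiquitin and NEDD8 genes were higher in 4 of 4 cases. UBFD1, a ubiquitin-domain protein, had 45.9, 49.6, 47.5 and 47.0 CPM in control and 71.1, 69.99, 71.8 and 74.3 CPM in ELAPOR1 libraries (log2 fold change 0.60, SE 0.046). USP7, the deubiquitinase that acts on MDM2 and p53, moved far less, from 92.4, 95.8, 92.1 and 91.6 CPM to 105, 105, 102 and 103 CPM (0.16, SE 0.038). Its groups were nevertheless apart. BFAR, a ubiquitin ligase of the endoplasmic reticulum membrane, was 0.20 higher (SE 0.051) without overlap, and DCUN1D3, which helps attach NEDD8 to cullins, 0.35 higher (SE 0.111) with overlap.

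The mitochondrial members varied most in direction and had the lowest median of the role groups, 0.15. TUFM, the elongation factor of mitochondrial translation, had 161, 173, 176 and 182 CPM in control and 205, 210.4, 204 and 202 CPM in ELAPOR1 libraries (log2 fold change 0.25, SE 0.035). COQ7, the hydroxylase of coenzyme Q synthesis, had 14.2, 13.0, 12.2 and 14.9 CPM in control and 17.6, 19.8, 17.6 and 17.9 CPM in ELAPOR1 libraries (0.42, SE 0.084). Both were separate between groups, as was UQCRC2, a core subunit of respiratory complex III (0.15, SE 0.037). TMEM186, an assembly factor of complex I, had 6.26, 8.20, 7.97 and 9.75 CPM in control and 6.997, 7.72, 5.83 and 5.65 CPM in ELAPOR1 libraries (-0.29, SE 0.134). Its groups overlapped, and it overlaps PMM2 and ABAT in the annotation. LYRM1 overlapped as well (0.09, SE 0.113).

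Trafficking, lysosome and endoplasmic reticulum genes spanned the widest range, from -0.21 to 0.80, with 7 of 8 higher. ARL6IP1, which shapes tubules of the endoplasmic reticulum, was the member with the largest difference. Its levels were 232, 221, 227 and 208 CPM in control and 386, 382, 396 and 385 CPM in ELAPOR1 libraries (log2 fold change 0.80, SE 0.032, or 1.74-fold). The ELAPOR1 libraries were close to one another and far above control, though the estimated counts of this gene were not whole in any library and the table lists 3 copies, ARL6IP1P1 to ARL6IP1P3. CLEC16A, an endolysosomal regulator of mitophagy, was 0.63 higher (SE 0.081), the sorting nexin SNX29 0.37 (SE 0.080) and TXNDC11, a redox protein of the endoplasmic reticulum, 0.35 (SE 0.069). GGA2, an adaptor for sorting at the trans-Golgi, was 0.25 higher (SE 0.044) and LITAF, a late endosome protein, 0.20 (SE 0.042).

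COG7 and CLN3 stood apart from that group. COG7, a subunit of the Golgi tethering complex, had 12.4 to 13.3 CPM in control and 11.9 to 13.9 CPM in ELAPOR1 libraries (log2 fold change 0.01, SE 0.088), and its sign changed when control replicate 1 or ELAPOR1 replicate 1 or 4 was left out (-0.02 to 0.05 over all libraries left out in turn). CLN3, the lysosomal membrane protein mutated in juvenile Batten disease, had 16.6, 12.6, 22.6 and 19.6 CPM in control and 16.1, 12.2, 16.5 and 16.9 CPM in ELAPOR1 libraries (-0.21, SE 0.19). CLN3 varied more between control libraries than between the groups, and its counts were not whole in any library. Its value ran from -0.34 without control replicate 2 to -0.07 without control replicate 3. CLN3 overlaps AC138894.1 in the annotation, which had 5.77, 8.97, 1.62 and 4.69 CPM in control and 3.19, 7.98, 4.90 and 7.21 CPM in ELAPOR1 libraries. In replicate 2 of each group AC138894.1 was highest and CLN3 lowest. Whether reads were divided between these genes was not tested.

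At the cell surface all 5 members were higher. ABCC1, the drug and glutathione-conjugate efflux pump MRP1, had 51.9, 51.2, 56.6 and 47.2 CPM in control and 75.7, 71.1, 71.8 and 72.6 CPM in ELAPOR1 libraries (log2 fold change 0.49, SE 0.049). No control library of ABCC1 reached the lowest ELAPOR1 library. GPRC5B, an orphan receptor, was 0.42 higher (SE 0.099), EMP2, a tetraspan membrane protein, 0.34 (SE 0.063) and TMC7, a channel-like protein, 0.33 (SE 0.127), each without overlap. IL4R, the receptor chain that binds interleukin 4, was 0.17 higher (SE 0.052) with overlap.

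In the group of enzymes and signalling proteins, all 7 tested members were higher. GDE1, a glycerophosphodiesterase, had 50.1, 49.3, 51.4 and 47.6 CPM in control and 69.97, 69.9, 72.9 and 72.7 CPM in ELAPOR1 libraries (log2 fold change 0.53, SE 0.045). The 2 groups of GDE1 were tight and far apart. METTL9, a histidine methyltransferase of proteins, had 63.98, 59.2, 61.1 and 54.2 CPM in control and 64.6, 63.5, 65.1 and 67.4 CPM in ELAPOR1 libraries (0.13, SE 0.049), with overlap through control replicate 1. CPPED1, a phosphatase, was 0.43 higher (SE 0.063), NUBP1, an assembly factor for cytosolic iron-sulphur proteins, 0.27 (SE 0.074) and PMM2, the phosphomannomutase of N-glycan synthesis, 0.26 (SE 0.065), with counts that were not whole in any library. SH2B1, an adaptor of insulin and leptin signalling, was 0.20 higher (SE 0.055), and LCMT1, which methylates the catalytic subunit of protein phosphatase 2A, 0.21 (SE 0.094) with overlap.

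The 4 less described members had a median of 0.16. KNOP1, a nucleolar protein, had 22.3, 24.0, 26.4 and 23.8 CPM in control and 35.2, 30.3, 34.6 and 33.98 CPM in ELAPOR1 libraries (log2 fold change 0.47, SE 0.067). ITPRIPL2 had 45.96, 41.8, 44.9 and 42.7 CPM in control and 46.4, 42.7, 46.6 and 48.1 CPM in ELAPOR1 libraries (0.07, SE 0.053). KNOP1 was thus separate between groups and ITPRIPL2 was not. CDR2 was 0.25 higher (SE 0.062) without overlap. SNN was 0.03 higher (SE 0.102) and changed sign without ELAPOR1 replicate 1 (-0.04) or control replicate 4 (-0.008).

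**Figure D3:**
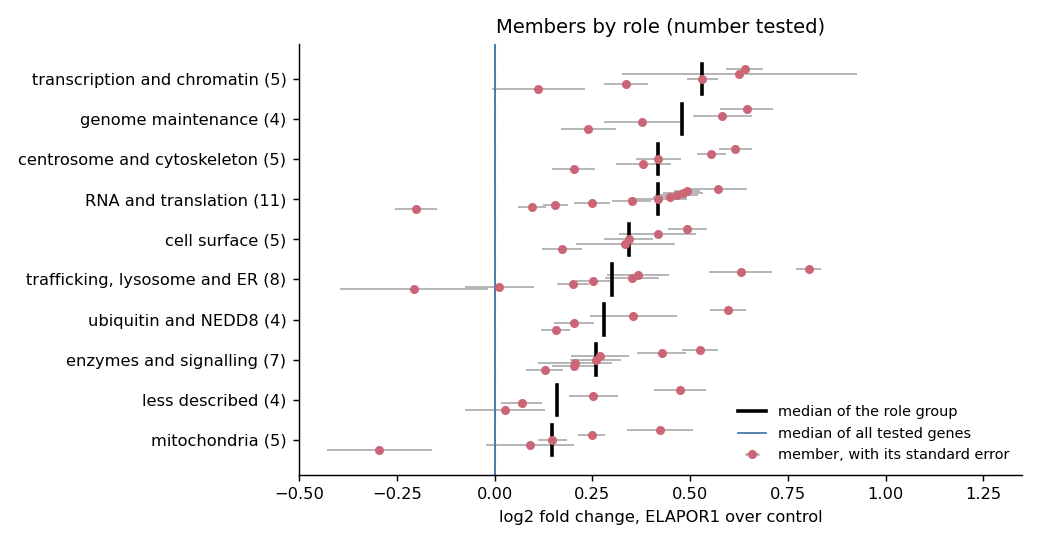
Log2 fold change of the 58 tested members with standard errors, grouped by role and ordered by the group median (black bars). The blue line is the median of all 13860 tested genes. Group medians run from 0.15 for mitochondria to 0.53 for transcription and chromatin, and TMEM186, CARHSP1 and CLN3 are the points below 0.

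Several members work in complexes with parts encoded on other chromosomes, which the choice of members did not use. Parts encoded on chromosome 16 itself were left out. Among them were COQ9, COG4, COG8 and POLR3K, with log2 fold changes of 0.21, 0.33, 0.24 and 0.27. A list of 69 partners on other chromosomes, in 14 sets, was examined, and 67 were tested. Of these, 19 rose and 13 fell at an edgeR adjusted p-value under 0.05, or 28.4% and 19.4% of them, close to the 22.6% and 22.1% of all tested genes. Their median log2 fold change was 0.03. The members were chosen for being higher in this contrast. The partners were listed by shared complex or step, but with earlier results of these data known. Members and partners are therefore only set side by side, and a member lying above its partners is not a result.

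Of the 8 listed partners of UQCRC2 in complex III none rose and 5 fell, with a median of -0.17, and UQCRC2 was at 0.15. UQCRB fell most, from 286, 317, 305 and 302 CPM in control to 241, 223, 241 and 238 CPM in ELAPOR1 libraries, without overlap (log2 fold change -0.36, SE 0.034, edgeR adjusted p = 7.7e-11). The 7 listed and tested partners of DCTN5 in dynactin had a median of -0.04 and a range of -0.17 to 0.11. Of them 2 were called higher and 2 lower, and DCTN5 was at 0.62. ACTR10 changed most among them (-0.17, SE 0.05, edgeR adjusted p = 5.9e-03), with overlapping groups.

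In DNA repair, 3 of the 4 partners of PALB2 rose, BRCA1, BRCA2 and BARD1. BRCA1 had 61.1, 56.2, 57.4 and 56.3 CPM in control and 79.2, 76.8, 73.8 and 75.8 CPM in ELAPOR1 libraries (log2 fold change 0.40, SE 0.045, edgeR adjusted p = 3.1e-09). With RMI2, its partner RMI1 rose by 0.33 (SE 0.053, edgeR adjusted p = 3.6e-06) and BLM by 0.18 (SE 0.05, edgeR adjusted p = 4.7e-03). ERCC1 was not called (-0.08, SE 0.044, edgeR adjusted p = 0.118). In the SMC5/6 set, SMC5 rose and NSMCE2 fell (-0.40, SE 0.065, edgeR adjusted p = 5.1e-06).

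Of the listed RNA polymerase III subunits, 4 rose, 1 fell and 3 were not called, with a median of 0.12, and POLR3E was at 0.33. The one that fell, POLR3GL (-0.25, SE 0.088, edgeR adjusted p = 0.018), lost its call without control replicate 4 (adjusted p = 0.0699), ELAPOR1 replicate 2 (0.0784) or ELAPOR1 replicate 3 (0.054). In the TFIIIC set 3 of 5 rose, led by GTF3C2 (0.28, SE 0.038, edgeR adjusted p = 2.6e-07). None of the microRNA silencing partners of TNRC6A rose and 2 of 6 fell, AGO4 by the most (-0.48, SE 0.08, edgeR adjusted p = 8.2e-06). ETF1, which forms the release complex with GSPT1, rose by 0.15 (SE 0.031, edgeR adjusted p = 1.4e-04), and neither GGA1 nor GGA3 was called.

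GFM1 was the partner with the largest rise. This elongation factor of mitochondrial translation went from 80.7, 79.5, 84.1 and 74.7 CPM in control to 107, 105, 111 and 107 CPM in ELAPOR1 libraries (log2 fold change 0.43, SE 0.041, edgeR adjusted p = 1.2e-10), beside 0.25 for TUFM, and GFM2 fell (-0.19, edgeR adjusted p = 4.7e-04). Of the 9 listed coenzyme Q synthesis genes, PDSS1 alone was called (0.39, SE 0.118, edgeR adjusted p = 6.6e-03). In the Golgi tethering complex COG2 rose by 0.25 (SE 0.069, edgeR adjusted p = 3.2e-03) and COG1 fell (-0.17, edgeR adjusted p = 0.0215).

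**Figure D4:**
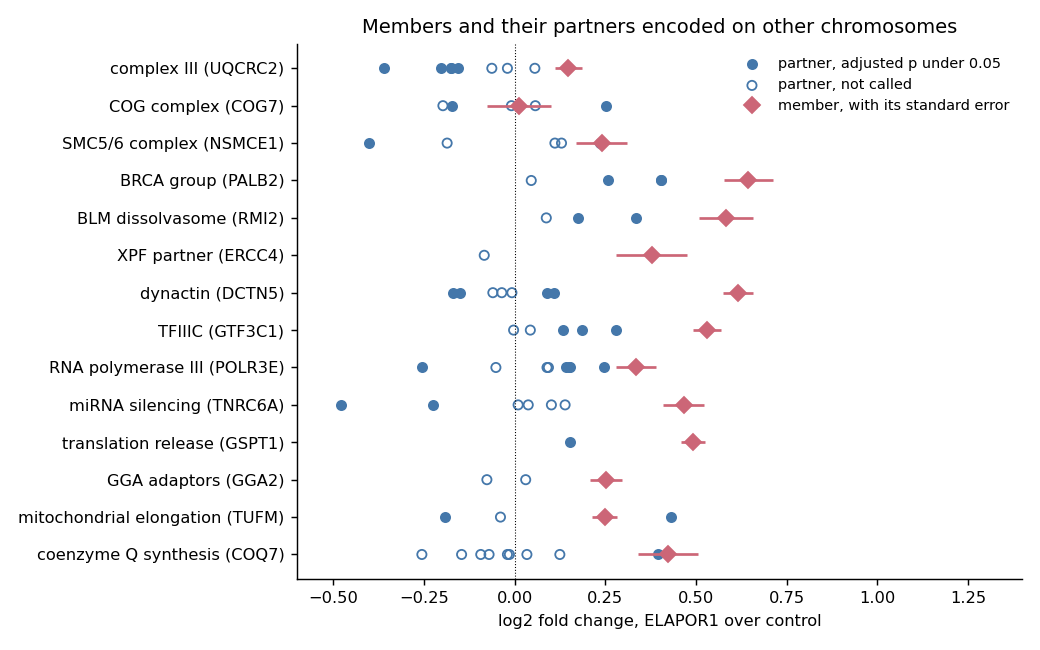
Log2 fold change of 14 members (red diamonds, with standard errors) and of their 67 tested partners on other chromosomes (blue, filled where the edgeR adjusted p-value was under 0.05). The circles of complex III lie mostly below 0, those of PALB2 and RMI2 all above 0.

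Some members start back to back with a neighbour on the other strand, so that the DNA between their starts belongs to both promoters. With starts taken from RefSeq on GRCh38.p14, which lists 49 of the 60 members, 7 such pairs with starts within 1000 bases were found. Each holds at least 1 member, and 4 pairs consist of 2 members. The search missed pairs. By GENCODE positions PARN and BFAR, both members (log2 fold changes 0.35 and 0.20), also start back to back. So do GTF3C1 and KIAA0556, which is no member (0.53 and 0.53). In 4 of the 7 pairs found both genes were higher and in 3 their signs differed. PALB2 and DCTN5 had nearly the same log2 fold change (0.64 and 0.62), as did TUFM and SH2B1 (0.25 and 0.20). EARS2, which is no member, and UBFD1 were at 0.44 and 0.60, and DCUN1D3 and LYRM1 at 0.35 and 0.09. TMEM186 and PMM2 differed in sign (-0.29, SE 0.134, and 0.26, SE 0.065), as did MARF1 and NDE1 (-0.04, SE 0.055, and 0.20). KNOP1 and IQCK differed as well (0.47 and -0.10, SE 0.216), and MARF1 and IQCK are no members. The genes below 0, TMEM186, MARF1 and IQCK, were not called (edgeR adjusted p = 0.073, 0.586 and 0.740). Values were thus alike in some pairs and unlike in others. Members were chosen for being higher, so like values in pairs of members were partly fixed by the choice. DCUN1D3 (SE 0.111) and LYRM1 (SE 0.113) overlap in the annotation. Nothing is read from these pairs about shared start regions.

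The DNA between the starts of a pair is shown on the plus strand, without bases of GENCODE exons. First comes the pair with the closest values among those found by RefSeq starts (81 of its 155 bases). Next is the pair of members that parted (168 of its 199 bases). Then follow 100 bases before the start of ARL6IP1 and 75 before that of RRN3, which with PALB2 had the largest differences. Capitals mark a CCAAT box on either strand (CCAAT or ATTGG), and GGGCGG (GC box), TATAAA and CACGTG were searched on both strands and not found in these windows. In GENCODE the window of TMEM186 and PMM2 lies in an intron of a longer PMM2 transcript, and that of RRN3 in an intron of PDXDC1.
PALB2 to DCTN5, chr16:23641311-23641391: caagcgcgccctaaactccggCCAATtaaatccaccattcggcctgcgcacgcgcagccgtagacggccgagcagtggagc
TMEM186 to PMM2, chr16:8797649-8797816: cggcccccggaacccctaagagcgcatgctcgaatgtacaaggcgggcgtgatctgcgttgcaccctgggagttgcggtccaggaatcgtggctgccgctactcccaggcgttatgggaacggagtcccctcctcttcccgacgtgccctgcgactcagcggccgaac
ARL6IP1, minus strand, chr16:18801679-18801778: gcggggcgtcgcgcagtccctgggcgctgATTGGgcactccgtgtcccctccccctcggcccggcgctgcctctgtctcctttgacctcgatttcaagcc
RRN3, minus strand, chr16:15094336-15094410: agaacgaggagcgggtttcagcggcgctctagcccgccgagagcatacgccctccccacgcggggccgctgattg

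A CCAAT box is common in such windows. It lies in the nearest 81 bases of 18.4% of the promoters of tested genes and in the nearest 100 bases of 22.0%, and a GC box in 47.9% and 53.2%. Over the full windows, 250 bases before to 50 after the start, the 49 member promoters had a median of 66.3% GC and 27 CG dinucleotides, beside 65.3% and 26 for 9915 promoters of tested genes. A CCAAT box was present in 36.7% of member promoters and 37.1% of the 9915, which include tested members. The shares were 63.3% and 70.9% for a GC box, 4.08% and 5.31% for TATAAA, and 10.2% and 10.2% for CACGTG. In these measures the members looked like tested genes at large.

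**Figure D5:**
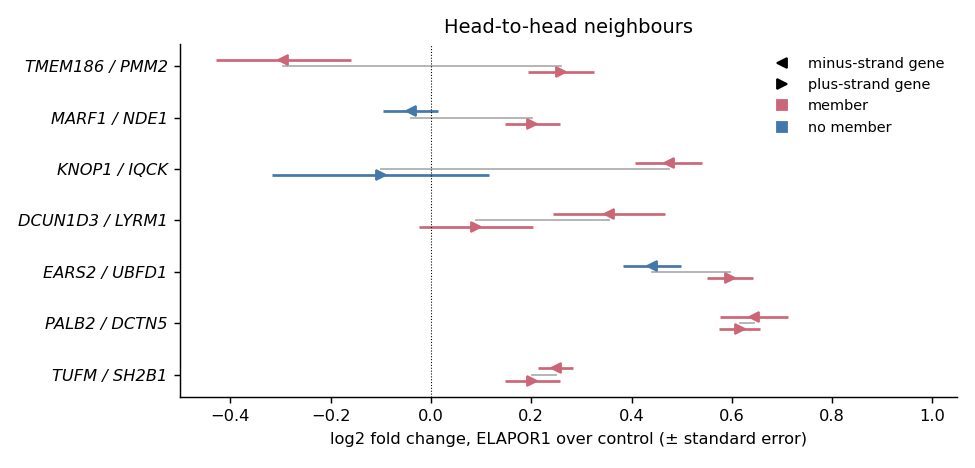
Log2 fold change with standard errors for the 7 head-to-head pairs, the minus-strand gene as a left-pointing and the plus-strand gene as a right-pointing triangle, members red and other genes blue. PALB2 and DCTN5 nearly coincide, and TMEM186 and PMM2 lie on opposite sides of 0.

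Genes of the same run that are no members were looked at last. The table has 524 gene rows that start between the first and the last member, of which 123 were tested, 65 of them no members. Their median log2 fold change was 0.33, and it was 0.31 over 78 genes when the 13 past SH2B1 were added. For the 40 that averaged 5 CPM or more the median was 0.32. Genes at this level defined the run, so these medians were partly fixed by the choice and nothing is read from them. Of the 25 below that level, 19 had a log2 fold change above 0, with a median of 0.39 beside -0.05 for the 3157 tested genes under 5 CPM, of which 46.4% were above 0. A gene that is high in only 1 group can pass the low-count filter through that group, so nothing is read from these values about the quiet genes of the run. VPS35L, a subunit of the retriever complex of endosomes, named after its values were seen, had 3, 3, 2 and 1 counts in control and 20, 20, 22 and 24 counts in ELAPOR1 libraries, and it overlaps KNOP1 in the annotation.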

How the data were processed

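Per the labels, RNA was extracted with TRIzol and sequenced on an Illumina NextSeq. The submitters' processing notes name cutadapt, STAR, RSEM and DESeq2 and the build hg38; versions, annotation release and strand setting are not given in the sources used here. The authors deposited expected counts per gene, unscaled, of which 15.0% of nonzero values were not whole. After rounding, edgeR 4.0.16 (R 4.3.3) was run on them (filterByExpr, TMM, robust quasi-likelihood test, two-sided, no covariate), with Benjamini-Hochberg adjustment over 13860 genes and calls at an adjusted p-value below 0.05. Each standard error is the size of the log2 fold change divided by the square root of F. The procedure was tested on simulated data. CPM use TMM factors. Positions are from GENCODE release 29 on GRCh38, which held 58597 of 58870 identifiers, and start regions from RefSeq on GRCh38.p14.

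The members, role groups, partner list and chromosome blocks were chosen with earlier results of these data known. Named members are, in each of 10 role groups, the one with the most CPM and the one with the largest log2 fold change, then the 3 largest and 3 smallest of all; named partners are the called gene with the largest change in each set, and other partners were named after their values were seen; neighbours are the nearest 2 tested genes inside and outside each end. Other members are given by value. Alternatives were edgeR's RLE factors, library totals, the DESeq2 1.42.0 Wald test, the replicate number as a block, all genes with any count, only genes with 10 or more counts in each library, an adjusted p-value under 0.01 and each library left out. Plots were drawn with matplotlib 3.10.9.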

Additional observations from a re-analysis of the deposited data

Results flagged for a closer look

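In 4 of 144 groups of 4 libraries examined, 1 library lay apart from the other 3, too far by Dixon's test for a group of 4; 7.2 would be found by chance, at 1 in 20. GGA2 was at 70.9 CPM in control replicate 2 and at 76.6 to 77.1 CPM in the other control libraries. UQCRC2 was at 119.9 CPM in ELAPOR1 replicate 1 and at 123.9 to 124.5 CPM in the other ELAPOR1 libraries. CLN3 was at 12.2 CPM in ELAPOR1 replicate 2 and at 16.1 to 16.9 CPM in the others. AC138894.1, which overlaps CLN3, was at 7.98 CPM in ELAPOR1 replicate 2 and at 3.19 to 7.21 CPM in the others. GTF3C2, a partner of GTF3C1, was at 99.2 CPM in control replicate 4 and at 91.8 to 92.6 CPM in the other control libraries.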

How the results depend on the processing

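Scaling by library totals gave a median log2 fold change of the members of 0.37, against 0.35, and moved the median of all tested genes by 0.02. Leaving out each library in turn gave 0.30 (without control replicate 4) to 0.36, and 45 to 48 members called higher. For the other 65 tested genes of the run the median went from 0.31 to 0.40. Of these genes, 25 to 31 were called higher, against 30, and 1 to 2 lower, against 1 (2 without control replicate 1). Over all tested genes, 22.6% were called higher and 22.1% lower. Genes that averaged 5 CPM or more defined the run, so nothing is read from these counts. Partners called numbered 27 to 33. All 812 values of single members under the alternatives moved by less than the spread between libraries. Of 180 values of named partners, 4 lost their call, all of POLR3GL, the fourth being its adjusted p-value of 0.018 at a threshold of 0.01. With the replicate number as a block, 47 members were called higher, 18 partners higher and 13 lower, and 5926 genes in all, against 6193. Same-numbered libraries did not deviate together (correlations of -0.038 to 0.020), so no pairing by number was seen. Such correlations cannot show whether same-numbered libraries were prepared together. At this depth a member near 1 CPM was imprecise: KDM8 was 1.54-fold higher and was not called.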
